A study of Mus musculus with 8 samples.

Results

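The genes that flank Nedd9 on mouse chromosome 13 were taken as all genes with an Agilent probe between 36.4 and 46.4 Mb of the mm9 build, about 5 Mb to either side of Nedd9, other than Nedd9 itself and the desmosome gene Dsp. The window held 82 genes with 98 probes, out of 31816 genes on the array. Each gene was represented by its brightest probe, and 64 genes passed a filter on dim signals (well above background in 3 or more tumours of either genotype); 25605 genes of the whole array passed it. The other 18 genes of the window, among them Ofcc1, Sycp2l, Gfod1 and predicted transcripts, were too dim and have no result below. Of the 64 kept genes, 54 were well above background on all 8 arrays.

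The comparison is of ovarian tumours that arose without drug treatment in female TgMISIIR-TAg mice on a C57BL/6J background, 4 mice that were Nedd9-null and 4 that were Nedd9-WT. Both genotypes carry the transgene, in which the promoter of Amhr2 (also called MISIIR), active in Müllerian-derived and gonadal support cells, drives the SV40 T antigen. The labels give no age and do not say how the null allele was built or how often it was backcrossed. Each tumour was hybridised to 1 array in 1 colour, and all tumours of a genotype shared 1 slide, whose effect and that of genotype cannot be told apart. Between 73.0% and 84.6% of probes were well above background per array. Nedd9-null replicate 1 stood apart from its group: over all genes it correlated at r = 0.938 to 0.973 with the Nedd9-WT tumours and at 0.886 to 0.920 with the other Nedd9-null tumours.

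NEDD9, of the CAS family of scaffold proteins, gathers focal adhesion kinase, SRC and their partners at sites of cell attachment. Its chromosomal neighbours have no common function: they include transcription factors, secreted signals, enzymes, ribosome and protein trafficking factors and a kinase of cilia. They are of interest because an engineered allele sits in their midst, and because DNA linked to such an allele is inherited with it. A level is the log2 signal of a tumour less the 75th percentile of its array, a difference is Nedd9-null minus Nedd9-WT with its standard error (SE) from limma, n = 4 mice per genotype, and adjusted p-values are limma's with Benjamini-Hochberg adjustment over 25605 genes and a threshold of 0.05.

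The first 30 of the 60 bases of 5 probes are shown, 5′ to 3′ as the deposited array files give them, because these probes measured the targeted gene and the flanking genes in which the genotypes did not overlap. The mm9 positions of the whole probes, all on the minus strand, are chr13:41405822-41405881 for Nedd9, chr13:41911508-41911567 and chr13:41859086-41859145 for the brighter and the dimmer probe of Adtrp, chr13:36817941-36818000 for Nrn1 and chr13:43248445-43248504 for Tbc1d7.
Nedd9: ttcctttatgaccaactcaagaaatatagt
Adtrp, brighter probe: caagtttgtcacatccttcagagatctgct
Adtrp, dimmer probe: accaattaatgtggaacgtaaggggctgtc
Nrn1: acgtgggaatcagccggtgaataatcatgc
Tbc1d7: ttaacctttaaaataaaggtcatggcattg
The 60 bases of the brighter Adtrp probe hold no stop codon in any of the 3 reading frames, whereas those of Nedd9, Nrn1 and Tbc1d7 each leave 1 frame without a stop; which exon or untranslated part each probe lies in was not analysed here.

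The targeted gene was examined first, at the single Nedd9 probe of the array; whether that probe lies in the part the null allele lacks is not given in the sources used here, and a probe outside it would not check the labels. Nedd9 had levels of -2.10, -3.61, -3.49 and -4.14 in Nedd9-null tumours 1 to 4, against 1.03, 0.72, 1.18 and 1.72 in Nedd9-WT tumours 1 to 4. Every Nedd9-null tumour was below every Nedd9-WT tumour, and Nedd9-null replicate 1 was the highest of its group. The probe was well above background on all 4 Nedd9-null and all 4 Nedd9-WT arrays, so that signal remained in the Nedd9-null tumours. The difference was -4.50 (SE 0.44, adjusted p = 0.0276), or 22.6-fold lower in Nedd9-null tumours, and the two-sided exact permutation p was 0.0286, the smallest that 70 arrangements can give. The adjusted p rose above the threshold when any of Nedd9-null replicates 2 to 4 or Nedd9-WT replicates 2 to 4 was left out, while the difference stayed between -4.91 and -4.23 over all 8 such fits.

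None of the 64 flanking genes passed the threshold, where 0.0664% of all genes did (17 genes, with 0.0586% higher and 0.00781% lower in Nedd9-null tumours). At an unadjusted p under 0.05, limma's test gave 15 flanking genes, or 23.4%, beside 23.7% of all genes. The genotypes did not overlap in 3 flanking genes, or 4.69%, beside 12.7% of all genes: Adtrp was higher in every Nedd9-null tumour (1 gene, beside 7.71% of all genes), and Nrn1 and Tbc1d7 were lower (2 genes, beside 4.95%). Of the 64 differences, 35 were above 0 (54.7%, beside 53.5% of all genes) and 29 below. Their median was 0.04, equal to the median of all genes at 2 decimals, and the middle 50% lay between -0.30 and 0.39, against -0.32 and 0.42 for all genes. Differences of at least 1 log2 unit in either direction were found in 17 flanking genes, or 26.6%, beside 18.4% of all genes.

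**Figure D1:**
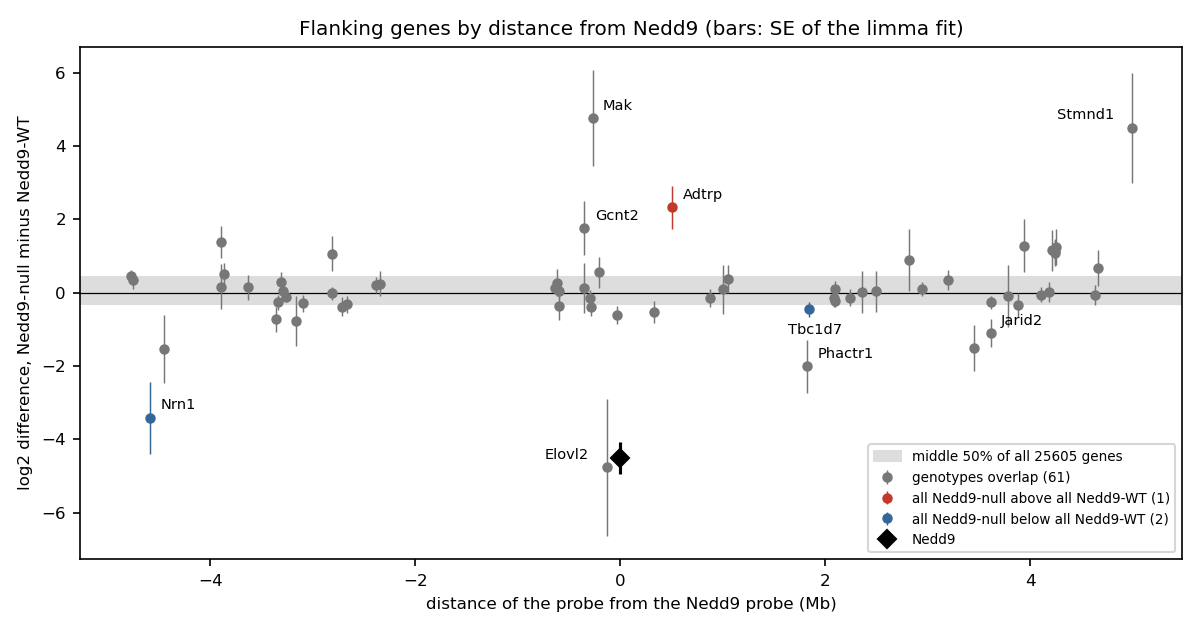
Difference (log2, Nedd9-null minus Nedd9-WT) of each of the 64 flanking genes against the distance of its probe from the Nedd9 probe in Mb. Points are limma estimates with their SE, the black diamond is Nedd9 at -4.50, and the grey band is the middle 50% of all 25605 genes; the fitted values of Mak (4.77) and Elovl2 (-4.76), both under 1 Mb from Nedd9, and Stmnd1 (4.50), at 4.99 Mb, lie farthest from 0, and all 3 are nearer to 0 with normexp correction (2.22, -3.44 and 3.10).

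Of the 3 nearest measured genes on each side, Smim13, Elovl2, Tmem170b and Hivep1 had differences below 0 and Gcm2 and Adtrp above 0, and none passed the threshold. On the side of lower coordinates, the closest was Smim13, a small membrane protein gene 0.03 Mb away. Smim13 had levels of 0.55, -0.05, -0.38 and -0.28 in Nedd9-null tumours, against 0.56, 0.64, 0.21 and 0.86 in Nedd9-WT tumours (difference -0.61, SE 0.25, adjusted p = 0.191). Nedd9-null replicate 1 lay among the Nedd9-WT values and the other 3 Nedd9-null tumours below them.

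Elovl2, an elongase of very long polyunsaturated fatty acids 0.13 Mb away, had levels of -2.66, -6.43, -8.17 and -8.03 in Nedd9-null tumours, against 1.86, -0.10, -6.14 and -1.88 in Nedd9-WT tumours. Its difference was -4.76, but -3.44 with normexp correction and -3.69 in the deposited value table. The Nedd9-WT tumours alone spanned from -6.14 to 1.86, the genotypes overlapped, and the adjusted p was 0.180 (SE 1.87). Its signal was called well above background in 2 Nedd9-null and all 4 Nedd9-WT tumours. Gcm2, a transcription factor gene known for parathyroid development, differed by 0.56 (SE 0.42, adjusted p = 0.463).

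On the side of higher coordinates, the closest measured gene was Tmem170b, a membrane protein gene 0.32 Mb away. Its levels were -3.09, -3.40, -4.17 and -4.11 in Nedd9-null tumours, against -3.29, -3.34, -2.68 and -3.33 in Nedd9-WT tumours (difference -0.54, SE 0.30, adjusted p = 0.320). The genotypes overlapped through Nedd9-null replicate 1. Adtrp followed at 0.51 Mb and Hivep1, which encodes a zinc finger protein that binds enhancers, at 0.87 Mb with a difference of -0.15 (SE 0.25, adjusted p = 0.758).

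Adtrp encodes a membrane hydrolase that regulates tissue factor pathway inhibitor in human endothelium, and the array lists it as 9530008L14Rik. Its levels were -5.86, -4.73, -3.41 and -5.53 in Nedd9-null tumours, against -6.41, -8.16, -7.19 and -7.09 in Nedd9-WT tumours. All 4 Nedd9-null tumours were above all 4 Nedd9-WT tumours, by 0.55 at the closest pair, and the difference was 2.33 (SE 0.58, adjusted p = 0.0935). A second probe, 52.4 kb away within the same gene, gave 2.25 (SE 0.54) and again no overlap. That probe was well above background on 4 Nedd9-null arrays but on 1 Nedd9-WT array. It met the filter through the Nedd9-null tumours alone and compares them mostly with signals at background. The gene was dim: the brighter probe was well above background on 4 Nedd9-null and 3 Nedd9-WT arrays. With normexp background correction its difference was 1.07. With quantile normalization and in the deposited value table the genotypes overlapped in Adtrp.

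Nrn1 encodes neuritin, a membrane-anchored protein that promotes neurite growth, and lies 4.59 Mb from Nedd9. Its levels were -3.67, -4.63, -6.19 and -6.92 in Nedd9-null tumours, against -0.47, -0.54, -3.40 and -3.35 in Nedd9-WT tumours. The genotypes were separated by 0.27 between Nedd9-null replicate 1 and Nedd9-WT replicate 3, while the levels spanned 3.25 within the Nedd9-null and 2.93 within the Nedd9-WT group. The difference was -3.41 (SE 0.98, adjusted p = 0.110).

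Tbc1d7 encodes a subunit of the TSC complex, which restrains mTORC1, and lies 1.84 Mb from Nedd9. Its levels were -0.91, -1.49, -1.01 and -1.19 in Nedd9-null tumours, against -0.89, -0.79, -0.29 and -0.84 in Nedd9-WT tumours. The genotypes did not overlap, but the highest Nedd9-null value and the lowest Nedd9-WT value were 0.015 apart. The difference was -0.45 (SE 0.21, adjusted p = 0.236).

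**Figure D2:**
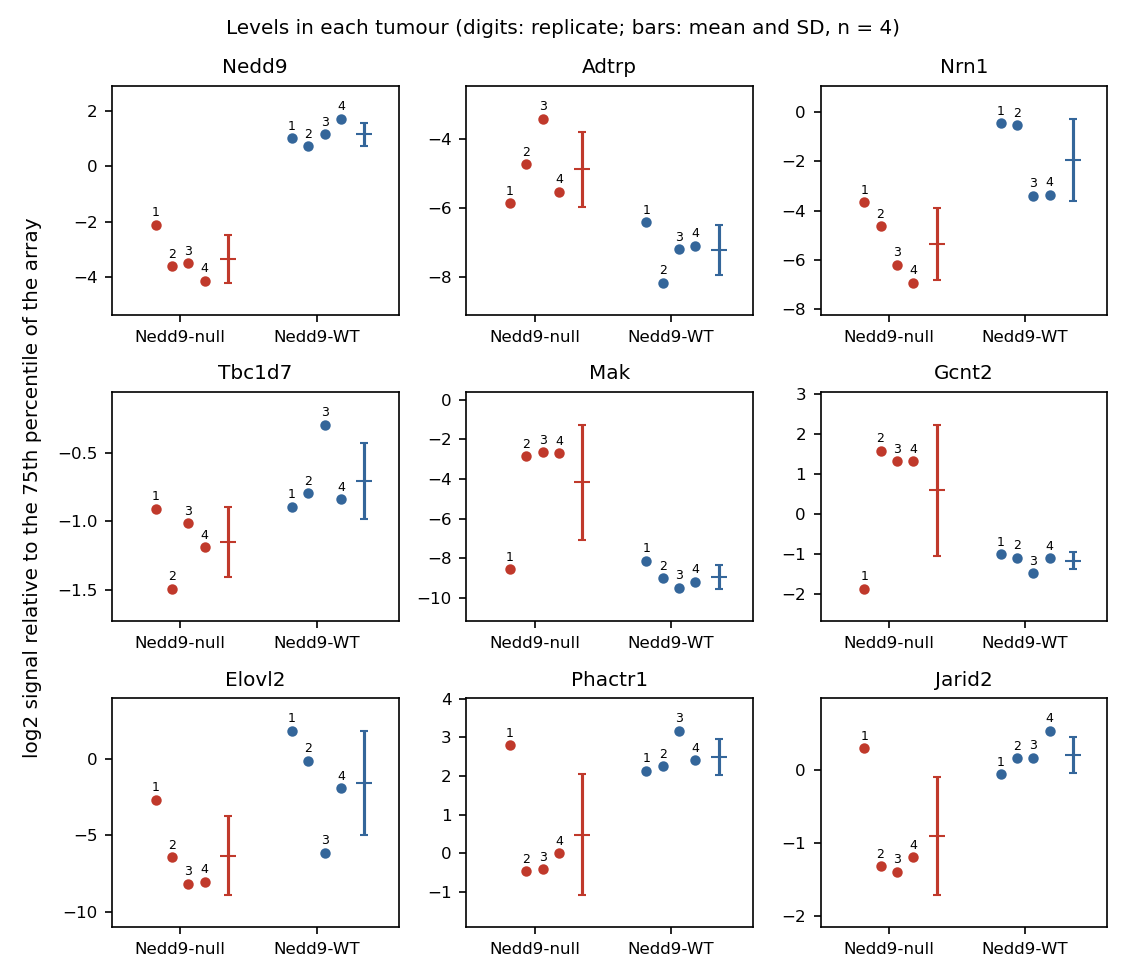
Level of Nedd9 and 8 flanking genes in each tumour (log2 signal relative to the 75th percentile of the array), Nedd9-null left and Nedd9-WT right; digits are replicate numbers, and bars are the mean and SD of 4 tumours. In Nedd9, Adtrp, Nrn1 and Tbc1d7 the genotypes do not overlap, whereas in Mak, Gcnt2, Phactr1 and Jarid2 replicate 1 of the Nedd9-null group lies with the Nedd9-WT tumours or beyond them.

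Among the 6 measured genes for transcription and chromatin, none passed the threshold, 3 differences were above 0 and 3 below, with a median of -0.05. Jarid2, a subunit of the Polycomb repressive complex PRC2, had levels of 0.30, -1.32, -1.39 and -1.20 in Nedd9-null tumours, against -0.06, 0.16, 0.16 and 0.53 in Nedd9-WT tumours (difference -1.10, SE 0.39, adjusted p = 0.149). Nedd9-null replicate 1 was among the Nedd9-WT tumours and the other 3 were more than 1 unit below them. Rreb1, a zinc finger factor downstream of RAS, had 1.43, 0.07, -0.11 and 0.10 in Nedd9-null tumours, against 1.18, 0.81, 1.22 and 1.16 in Nedd9-WT tumours (difference -0.72, SE 0.35, adjusted p = 0.250). Here replicate 1 was above all Nedd9-WT tumours and the other 3 below all of them.

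Atxn1, the spinocerebellar ataxia gene whose product works with the repressor Capicua, had -1.14, -1.18, -1.18 and -0.95 in Nedd9-null tumours, against -1.01, -2.60, -3.57 and -2.25 in Nedd9-WT tumours. The difference of 1.25 (SE 0.48, adjusted p = 0.173) came with 1 Nedd9-WT tumour inside the Nedd9-null range. Tfap2a, the gene of the AP-2 alpha factor of ectoderm and neural crest, differed by 0.04, which was below 0 with normexp correction, quantile normalization, the array median as the scale and the deposited value table.

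Of 7 genes for secreted or surface signals, 5 differences were above 0 and 2 below, with a median of 0.09, and none passed; with the array median as the scale the split was 2 above and 5 below. Besides Adtrp and Nrn1, the list holds Bmp6, a ligand of the BMP family with roles in iron sensing and in the ovary. Bmp6 had -0.57, 1.00, 0.87 and 0.65 in Nedd9-null tumours, against -0.33, -1.57, 0.29 and -0.73 in Nedd9-WT tumours (difference 1.07, SE 0.48, adjusted p = 0.225). Edn1, the endothelin 1 gene, differed by 0.09 (SE 0.68), with an SD of 0.11 in Nedd9-null tumours and 1.53 in Nedd9-WT tumours.

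Some flanking genes are known from leukocytes: F13a1, the factor XIII subunit of macrophages and platelets, Ly86, the partner of the Toll-like protein RP105, and Cd83, a surface marker of mature dendritic cells. F13a1 had -0.73, -1.18, -3.67 and -2.77 in Nedd9-null tumours, against 0.01, -2.83, 0.82 and -0.25 in Nedd9-WT tumours (difference -1.53, SE 0.92, adjusted p = 0.353), and Ly86 and Cd83 differed by 0.17 (SE 0.61) and 0.04 (SE 0.55). In whole tumours, fewer cells of a type and less RNA per cell cannot be told apart. The signals of the markers of a cell type were summed and then taken to log2, so that the brightest markers weigh most. For 12 leukocyte markers the sums ran from 3.79 to 5.86 over Nedd9-null tumours and from 3.95 to 4.69 over Nedd9-WT tumours. Of the 12 differences, 8 were above 0 and none passed the threshold. On every array the sum was mostly Itgam and Csf1r, while Ptprc lay between -4.68 and -2.56. The highest sum, in Nedd9-null replicate 1, was mostly Itgam, at 5.75. For 8 endothelial markers the sums ran from 1.79 to 2.02 over Nedd9-null tumours and from 1.95 to 2.62 over Nedd9-WT tumours, with 1 of 8 above 0. These sums were mostly Kdr and Cdh5. Emcn, Eng and Erg were lower without overlap (beside 4.95% of all genes) and Kdr higher without overlap (beside 7.71%). No endothelial marker passed the threshold. The part of these cells in the levels of F13a1, Ly86, Cd83 or Edn1 was not tested.

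Of 8 genes for metabolism and mitochondria, 4 differences were above 0 and 4 below, with a median of 0.04, and none passed. Gcnt2, which branches poly-N-acetyllactosamine chains to the I antigen, had -1.86, 1.59, 1.33 and 1.33 in Nedd9-null tumours, against -0.99, -1.09, -1.48 and -1.09 in Nedd9-WT tumours. Replicate 1 was the lowest of all 8 tumours and the other 3 Nedd9-null tumours were more than 2 units above every Nedd9-WT tumour (difference 1.76, SE 0.73, adjusted p = 0.199). Gmpr, the GMP reductase of purine salvage, had -1.70, 0.38, 0.44 and 0.92 in Nedd9-null tumours, against -1.56, -0.49, -1.14 and -1.40 in Nedd9-WT tumours (difference 1.16, SE 0.56, adjusted p = 0.256).

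The mitochondrial genes were nearer to 0. Fars2, the mitochondrial phenylalanyl-tRNA synthetase, differed by 0.45 (SE 0.19, adjusted p = 0.203), and Sirt5, a desuccinylase, by -0.15. Mcur1, which regulates the calcium uniporter, differed by -0.13, and Tmem14c, needed for heme synthesis, by -0.39. Slc35b3, a Golgi transporter of the sulfate donor PAPS, differed by 0.21.

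All 9 differences of the genes for protein and RNA handling were below 0, between -0.38 and -0.01, and none passed the threshold. Their median was -0.26, beside 0.04 over all genes, of which 53.5% had a difference above 0. The list was chosen with earlier results of these data known, and the run of signs was not tested. The largest was Bloc1s5, listed as Muted, a subunit of the BLOC-1 complex of lysosome-related organelles, with 0.82, 0.22, 0.03 and 0.10 in Nedd9-null tumours, against 0.62, 0.66, 1.16 and 0.24 in Nedd9-WT tumours (difference -0.38, SE 0.26, adjusted p = 0.418). Dtnbp1, another subunit of BLOC-1, differed by -0.26, and Ssr1, of the translocon-associated complex of the endoplasmic reticulum, by -0.26. The genes for RNA, the ribosome and translation (Snrnp48, Eef1e1, Nol7, Pak1ip1 and Riok1) ranged from -0.31 to -0.11. Txndc5, a disulfide isomerase, was at -0.01, and it was above 0 with normexp correction, quantile normalization and the deposited value table, which left 8 of 9 below 0.

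Of 8 genes for the cytoskeleton, kinases and ubiquitin ligases, 4 differences were above 0 and 4 below, with a median of -0.02. Mak, a kinase that limits the length of cilia, was dim in most tumours. Its levels were -8.53, -2.84, -2.62 and -2.68 in Nedd9-null tumours, against -8.12, -8.98, -9.48 and -9.17 in Nedd9-WT tumours. It was well above background on 3 Nedd9-null arrays, those of replicates 2 to 4, and on no Nedd9-WT array. The fitted difference was 4.77 (SE 1.30, adjusted p = 0.103). For a more cautious ratio, the Nedd9-null mean was divided by the mean, over the Nedd9-WT arrays, of the dimmest signal still called well above background. On the processed signal this ratio was 11.0-fold. It is no strict lower limit, because the Nedd9-null mean includes replicate 1, whose level of -8.53 was itself at background. The ratio holds for that signal alone, since the fitted difference was 2.22 with normexp background correction and 2.55 in the deposited value table.

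Phactr1, which binds actin and protein phosphatase 1, went the other way. It had 2.80, -0.45, -0.40 and 0.00 in Nedd9-null tumours, against 2.14, 2.25, 3.17 and 2.41 in Nedd9-WT tumours (difference -2.01, SE 0.72, adjusted p = 0.155). Its other 2 probes gave -2.07 and -2.09. Replicate 1 lay inside the Nedd9-WT range, and the other 3 Nedd9-null tumours were more than 2 units below it. The remaining genes of this group, the ubiquitin ligase genes Mylip, Rnf182 and Ranbp9 and the testis antigen gene Cage1, ranged from -0.05 to 0.29.

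Nedd9-null replicate 1 stood with the Nedd9-WT tumours in many of these genes. Its level was within the Nedd9-WT range in 38 of the 64 flanking genes, or 59.4%, beside 51.7% of all genes. Without it, 12 flanking genes, or 18.8%, passed the threshold, beside 18.5% of all genes (4741 genes), and the genotypes did not overlap in 20, or 31.2%, beside 34.1%. Higher in the other 3 Nedd9-null tumours (6 genes, or 9.38%, beside 10.4% of all genes) were Mak, Gcnt2, Gmpr, Adtrp, Stmnd1 and the transcript TC1686493. Lower (6 genes, beside 8.1% of all genes) were Nrn1, Rreb1, Smim13, Phactr1, Jarid2 and the transcript D13Ertd787e. The adjusted p was then 3.25e-04 for Gcnt2 (difference 2.58), 0.00107 for Phactr1 (-2.78) and 0.00201 for Jarid2 (-1.50). Mak and Stmnd1 passed the filter through the Nedd9-null tumours alone. The call of Mak compares them with signals at background. The call of Stmnd1 does so in part, since it was well above background in only 2 Nedd9-WT tumours. The tumour left out is the one nearest to the Nedd9-WT group in these same data, so the p-values of this fit cannot be taken at face value. These calls are given only beside the share of all genes. In 7 of these 12 genes replicate 1 was within the Nedd9-WT range, in Rreb1, Gcnt2 and Gmpr it was beyond that range on the side away from the other Nedd9-null tumours, and in Nrn1 and Adtrp it was beyond it on their side. Stmnd1, TC1686493 and D13Ertd787e, and below ENSMUST00000099550 and LOC100045978, were named after their values were seen.

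Stmnd1, a stathmin domain gene listed as Gm1574, lies at the far edge of the window and was well above background in 3 Nedd9-null and 2 Nedd9-WT tumours. It had -7.57, -1.33, -1.07 and -0.997 in Nedd9-null tumours, against -5.80, -8.46, -7.60 and -7.12 in Nedd9-WT tumours (difference 4.50, SE 1.49, adjusted p = 0.136). With normexp correction the difference was 3.10, and it was 3.22 in the deposited value table.

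The signals of markers of other cell types were summed in the same way in each tumour. The summed level of 8 markers of ciliated oviduct cells was 5.87, 6.56 and 6.63 in Nedd9-null replicates 2 to 4 and 2.93 in replicate 1, against 0.25 to 1.78 in Nedd9-WT tumours, with all 8 differences above 0. That of 10 granulosa and steroidogenic markers was 5.74 in Nedd9-null replicate 1 and 3.95 to 4.04 in replicates 2 to 4, against 5.70 to 6.43 in Nedd9-WT tumours, with 9 of 10 below 0. In Nedd9-null replicates 2 to 4 the sum of granulosa and steroidogenic markers was mostly Foxl2, the only one with a difference above 0 (0.27). It thus says little there of the other 9 markers, among which Inha differed by -5.37 and Nr5a1 by -4.06. For 8 epithelial markers the summed level was 2.32 in Nedd9-null replicate 1 and 5.46 to 6.40 in replicates 2 to 4. In Nedd9-WT tumours it was 3.23 to 5.64, and all 8 differences were above 0. The 4 markers of mesothelium and ovarian surface summed to levels from 5.24 to 5.70 over Nedd9-null tumours and from 4.93 to 5.46 over Nedd9-WT tumours. The highest of these sums, in Nedd9-null replicate 1, was mostly Wt1, at 5.68. That tumour was the lowest of all 8 in Msln, Upk3b and Lrrn4. No marker passed the threshold, and some were kept through 1 genotype alone. Amh, Fshr, Cyp11a1 and Hsd3b1 were well above background in all 4 Nedd9-WT tumours but only in 1, 1, 2 and 2 Nedd9-null tumours. Ccdc113 was well above background in 4 Nedd9-null and 2 Nedd9-WT tumours. The differences of these markers rest partly on signals at background. The part of these cells in the levels of Mak, Stmnd1, Gcnt2, Phactr1, Jarid2 and the other flanking genes was not tested.

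**Figure D3:**
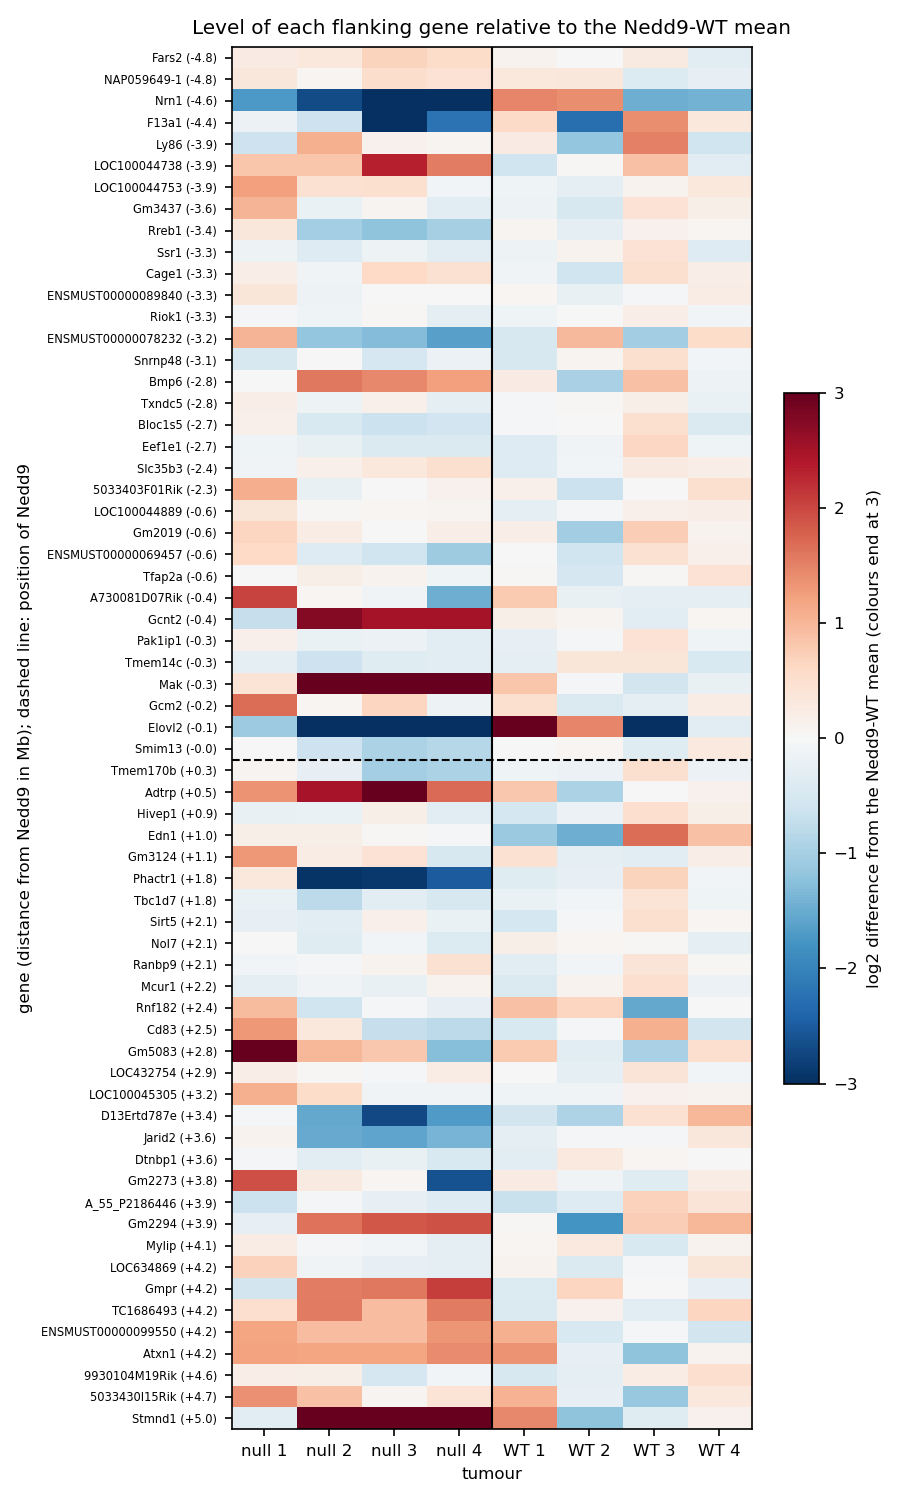
Level of each of the 64 flanking genes in each tumour, as the log2 difference from the mean of the 4 Nedd9-WT tumours (red above, blue below, colours end at 3), Nedd9-null tumours left and Nedd9-WT tumours right. Genes run from the lowest to the highest coordinate with their distance from Nedd9 in Mb, and strongly coloured genes are scattered along the window, with Nedd9-null replicate 1 often unlike replicates 2 to 4.

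Distance from Nedd9 was described in steps of 1 Mb. The 16 genes under 1 Mb had a median difference of 0.07 and 1 gene without overlap (6.25%, beside 12.7% of all genes). The 3 genes at 1 to 2 Mb had a median of -0.45 and 1 gene without overlap (33.3%). The 14 genes at 2 to 3 Mb had a median of 0.03 and the 18 genes at 3 to 4 Mb a median of -0.10, with no gene without overlap in either. The 13 genes at 4 to 5 Mb had a median of 0.45 and 1 gene without overlap (7.69%). The medians did not follow the distance, and the counts without overlap are too small per step to be read by distance. Across the 64 genes Spearman's rho between distance and size of the difference was 0.10. It is given as a description because neighbouring genes share the same 8 arrays.

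By side, the median was 0.06 over 33 genes at lower coordinates and 0.02 over 31 genes at higher coordinates. The stretch of 1 Mb farthest out on the higher side held 9 genes with a median of 1.09, the farthest from 0 of the stretches by side. Of these genes, 7 were above 0 (77.8%, beside 53.5% of all genes). Gmpr, TC1686493 (1.13), the transcript ENSMUST00000099550 (1.09), Atxn1 and Stmnd1 each exceeded 1. These 5 genes were 55.6%, beside 18.4% of all genes with a difference of at least 1 in either direction. No test was made of this stretch. In none of these 9 genes were the genotypes without overlap, beside 12.7% of all genes, a count too small to be read by itself. The probes of TC1686493, ENSMUST00000099550 and Atxn1 lie within 0.1 Mb of each other.

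Beyond the window, 71 genes of the equally wide stretch at lower coordinates had a median difference of 0.06 and 6 genes without overlap (8.45%). In the stretch at higher coordinates, 139 genes had a median of -0.18 and 13 without overlap (9.35%). The 927 genes of the rest of chromosome 13, which include both stretches, had a median of -0.04 and 90 without overlap (9.71%, beside 12.7% of all genes). No test was made between these sets and the flanking genes. Besides Nedd9, 1 gene of chromosome 13 passed the threshold, the transcript LOC100045978 at 9.01 Mb from Nedd9 on the higher side. It had -7.23, -7.76, -6.78 and -6.38 in Nedd9-null tumours, against -9.70, -9.44, -9.75 and -10.26 in Nedd9-WT tumours (fitted difference 2.75, SE 0.33, adjusted p = 0.0488). It passed the filter through 3 Nedd9-null tumours alone and was at background in every Nedd9-WT tumour. The fitted difference and its p thus compare with signals at background. The ratio computed as for Mak was 1.51-fold. It is no strict lower limit either, because the Nedd9-null mean includes replicate 2, whose level of -7.76 was itself at background.

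**Figure D4:**
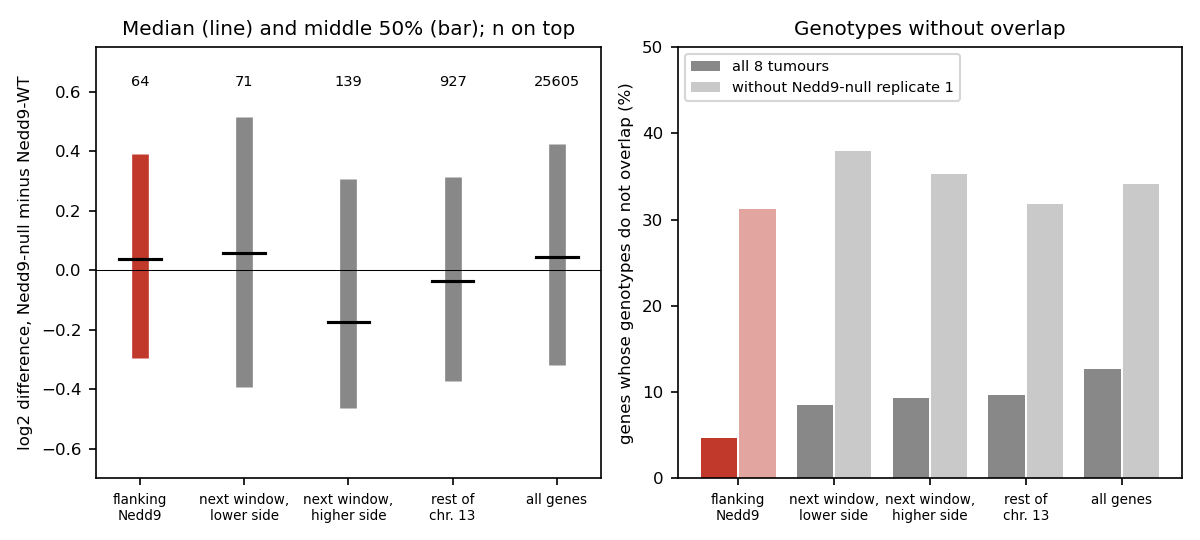
Left: median (black line) and middle 50% (bar) of the log2 difference, Nedd9-null minus Nedd9-WT, in the 64 flanking genes, the next windows on chromosome 13, the rest of that chromosome and all genes. Right: percent of genes whose genotypes do not overlap, with all 8 tumours and without Nedd9-null replicate 1; the flanking genes are at 4.69% and 31.2%, beside 12.7% and 34.1% of all genes.

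Other probes of the flanking genes allowed a check within genes. Further probes passed the filter in 11 genes, 15 probes in all, and 13 of them had the direction of the brightest probe. Gcnt2 had 1.07 at its second probe, F13a1 -1.68 and Rreb1 -0.68 and -1.44. The second probe of F13a1 met the filter through Nedd9-WT tumours alone (3 arrays). That of Adtrp met it through Nedd9-null tumours alone (4 arrays). The 2 exceptions were D13Ertd787e, with 0.22 at its second probe against -1.50 at the brightest, and Mylip, with 0.15 against -0.05.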

How the data were processed

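RNA of 8 ovarian tumours, 4 Nedd9-null and 4 Nedd9-WT, was hybridised to 8 Agilent arrays; groups and replicate numbers come from the sample titles. The deposited scanner files hold intensity values of 1 colour, made with Agilent Feature Extraction 9.5.3 per the submitters' processing notes; per the file headers the processed intensity is background-subtracted and detrended within the array, and probe positions are on mm9. The deposited value table holds log2 values that track the median signal of each spot (r of 0.999 or more on every array, after rounding); the authors' background step for it is unknown, and it served as an alternative only.

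Each processed signal was taken to log2, and the 75th percentile of its array was subtracted. Of 44397 spots, 1377 controls were left out, as were 194 to 292 outlier spots per array; spots of a probe were averaged, and 27 of 39429 probes, which lacked a value on some array, were left out. The test of genotype was limma's (version 3.58.1, in R 4.3.3; lmFit, then eBayes, 2-sided, with 1.85 prior degrees of freedom), with the data.table package (version 1.17.8) to read files. The fit was tested on simulated data. The number of arrays limits the precision. Gene names were updated through a RefSeq table, used for names alone: 40 of the 64 flanking genes matched by accession and 4 by symbol, and 20 kept the name in the files.

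Members named with values are those past the threshold, those without overlap, the 3 nearest on each side and the members of 5 role lists; 4 further members and 1 gene beyond the window were named after their values were seen. The members, the role lists and the 6 marker lists were chosen with earlier results of these data known. Same-numbered tumours did not deviate together (r from -0.23 to -0.04), so the replicate numbers were not used as pairs. Alternatives changed the background correction, the scale, the filter on dim probes, the probe per gene, the width of the window, the replicate block and the tumours included.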

Additional observations from a re-analysis of the deposited data

Results flagged for a closer look

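In 43 genes (Nedd9 and 42 flanking genes), both genotypes were searched for 1 tumour far from the other 3 of its group, 86 groups in all. Of these, 10 were found, and 6 of them were Nedd9-null replicate 1. For a single group chance gives about 1 in 20. The counts cannot be set against that rate, because all genes were measured in the same 8 tumours and the groups are not independent. Stmnd1, TC1686493 and D13Ertd787e were among the genes searched because they passed once that tumour was left out; over the other 40 genes, 9 of 80 groups were found, 5 of them Nedd9-null replicate 1. That tumour had 0.30 in Jarid2, 1.43 in Rreb1 and 2.80 in Phactr1, where the other Nedd9-null tumours had -1.39 to -1.20, -0.11 to 0.10 and -0.45 to 0.00. It had -1.86 in Gcnt2, -7.57 in Stmnd1 and -8.53 in Mak, where the others had 1.33 to 1.59, -1.33 to -0.997 and -2.84 to -2.62. Its signals in Stmnd1 and Mak were at background.

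Nedd9-null replicate 4 had -0.95 in Atxn1, with the others at -1.18 to -1.14. Nedd9-WT replicate 3 had -0.29 in Tbc1d7, with the others at -0.89 to -0.79, and -2.68 in Tmem170b, with the others at -3.34 to -3.29. Nedd9-WT replicate 2 had 0.81 in Rreb1, with the others at 1.16 to 1.22.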

How the results depend on the processing

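No flanking gene passed the threshold under any alternative that kept the window and all 8 tumours. Over all genes, 17 passed (15 higher, 2 lower), against 33 with normexp correction (29 and 4), 7 with the array median as the scale (5 and 2), 4 with quantile normalization (3 and 1), 19 in the deposited table (14 and 5) and 7 where a signal well above background on all 8 arrays was required, a filter that gives no value for Mak, Elovl2, Adtrp and Stmnd1. With the replicate numbers as a replicate block, no gene passed, and Nedd9 kept its difference of -4.50 at an adjusted p of 0.214; the numbers were not borne out as pairs. Leaving out 1 tumour gave 0 to 4741 genes past the threshold, 0 to 12 flanking genes, 3 to 20 without overlap, a median of -0.10 to 0.10 and a Nedd9 difference of -4.91 to -4.23. The upper counts are without Nedd9-null replicate 1. When Nedd9-WT replicate 1 was left out there were 43 genes past the threshold and 8 flanking genes without overlap (12.5%, beside 19.2% of all genes); that last count was 7 with Nedd9-WT replicate 3 left out (10.9%, beside 17.0%) and 5 with replicate 4 of either genotype left out (7.81%, beside 15.9% for Nedd9-null and 18.2% for Nedd9-WT). Over all genes, 2 passed when Nedd9-null replicate 4 was left out, and 0 when any of the other 5 tumours was (replicates 2 and 3 of the Nedd9-null group, 2 to 4 of the Nedd9-WT group). Flanking genes without overlap numbered 5 with normexp correction (7.81%, beside 12.4% of all genes) and 5 of 82 with no filter (6.10%, beside 10.7%). They numbered 3 with quantile normalization (4.69%, beside 13% of all genes) and 3 in the deposited table (4.69%, beside 13.3%). In both of these settings Adtrp overlapped and Fars2 was higher without overlap. Within 10 Mb, 15 of 166 genes were without overlap (9.04%, beside 12.7%) and 1 passed.

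The median difference, 0.04, was -0.16 with the array median as the scale (-0.16 over all genes) and -0.080 with quantile normalization (-0.072), and the share of flanking genes above 0, 54.7%, was 35.9% and 40.6%, and 42.2% in the deposited table. Of 710 values of 42 genes under 17 alternatives, 656 kept direction and side of the threshold, 12 passed it newly, all without Nedd9-null replicate 1, and 42 values of 12 genes changed sign. With normexp correction Txndc5 was 0.011, Tfap2a -0.074 and Rnf182 -0.073. With the array median Ly86 was -0.037, Tfap2a -0.16, Edn1 -0.11, Ranbp9 -0.094, Rnf182 -0.19 and Cd83 -0.17. With quantile normalization Txndc5 was 0.0029, Tfap2a -0.31 and Rnf182 -0.086. In the deposited table Txndc5 was 0.046, Tfap2a -0.20, Rnf182 -0.12 and Cd83 -0.015. With the mean of kept probes Mylip was 0.052. Leaving out 1 tumour gave -0.28 to 0.031 for Mcur1, -0.39 to 0.39 for Cd83, -0.40 to 0.65 for Edn1, -0.32 to 0.022 for Hivep1, -0.22 to 0.67 for Ly86, -0.20 to 0.047 for Mylip, -0.23 to 0.0050 for Pak1ip1, -0.0059 to 0.24 for Ranbp9, -0.50 to 0.31 for Rnf182, -0.32 to 0.015 for Sirt5, -0.13 to 0.18 for Tfap2a and -0.086 to 0.070 for Txndc5. The cause of these changes was not tested. Signal over background limits what can be said of Mak, Adtrp, Elovl2, Stmnd1 and the 18 genes below the filter.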

Other observations

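Over the 64 flanking genes, the levels of Nedd9-null replicate 1 correlated at r = 0.947 to 0.974 with the 4 Nedd9-WT tumours and at 0.837 to 0.877 with the other 3 Nedd9-null tumours. Nedd9-null replicates 2 to 4 correlated with each other at 0.981 to 0.984 and with the Nedd9-WT tumours at 0.818 to 0.901. These are correlations across genes, which are not independent replicates.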
